A study of Sparus aurata with 6 samples.

Results

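This report describes 157 contigs whose signal in gills of gilthead seabream (Sparus aurata) was higher with the diet that contained EOs, as measured by at least 2 different probes each. They were chosen by their measured values. A probe was kept if it was well above background on all 6 arrays, and a contig was selected if 2 or more of its kept probes each had every EOs array above every control array and a mean difference of 0.5 or more on the log2 scale. Of 15156 contig or clone names on the array, 5292 had 2 or more kept probes and could be selected, and 2.97% of these were. Since the diet contrast chose the contigs, their diet differences are given as a description, without a test.

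Gills were sampled from juvenile fish on day 65 of feeding, by the methods from 8 fish per diet. The control group received the standard diet without additive, and the EOs group received a diet with 0.5% of a microencapsulated blend of synthetic garlic, carvacrol and thymol essential oils. Whole gill filaments were used, so RNA of all their cell types was measured together, and a change in the number of cells cannot be told apart from a change of RNA per cell. Each diet had 3 pools of RNA, with 1 array per pool. By the methods, 1 pool of each diet was an equal mixture of the other pools, while the text that accompanies the data speaks of separate pools, and the labels do not say which pool is the mixture. Replicates of a diet are therefore pools that may share fish. The methods and that text also differ on the number of fish per diet. By the file headers all arrays were scanned on 1 day, the control arrays first, and a shift during scanning cannot be told apart from the diet.

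Gills are the organ of gas exchange, ion transport and nitrogen excretion in teleosts, and their thin epithelium with its mucus is also a barrier that holds resident immune cells. Carvacrol and thymol are phenolic isomers found in oregano and thyme, and garlic oil is rich in sulphur compounds. A contig is a consensus assembled from overlapping reads of cDNA clones, and on this array a name can stand either for such a consensus or for the read of a single clone. Many names have more than 1 probe. Probes of 1 name were designed on what was taken as the same transcript, so the agreement between them is a check on the spot and the probe, but not on the fish, since all probes saw the same RNA.

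The files pair no contig with a gene name, and 0 of the 15156 names were found in the RefSeq gene table used here. Roles of the genes, the gill's marker genes and sequences of the probes are therefore not described, and contigs are referred to by their rank, which orders them by the smallest difference among their qualifying probes. Only 2 are given by name, the first by rank and the one with the most qualifying probes.

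Values are log2 intensities relative to the 75th percentile of the array, so that 0 is a bright spot and negative values are most of the array. Over the 385 qualifying probes of the 157 contigs, the median was -2.10, -2.27 and -2.19 on the control arrays 1, 2 and 3, and -1.32, -1.47 and -1.44 on the EOs arrays 1, 2 and 3. The 3 EOs medians lay above the 3 control medians, as the selection demands. The medians of all 21469 kept probes were between -1.11 and -0.99 on the control arrays and between -1.08 and -1.05 on the EOs arrays, and there the diets overlapped.

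Most differences were small. The qualifying probes differed by 0.50 to 4.85 with a median of 0.69, or 1.61-fold, while the median over all kept probes was 0.02 with quartiles at -0.15 and 0.20. The mean difference of a contig was below 0.75 for 96 contigs, between 0.75 and 1 for 33, between 1 and 2 for 24, and above 2 for 4. The lowest EOs array lay above the highest control array by a median of 0.35 per contig. This gap was over 0.5 for 46 contigs and over 1 for 7, and at its smallest it was 0.05.

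**Figure D1:**
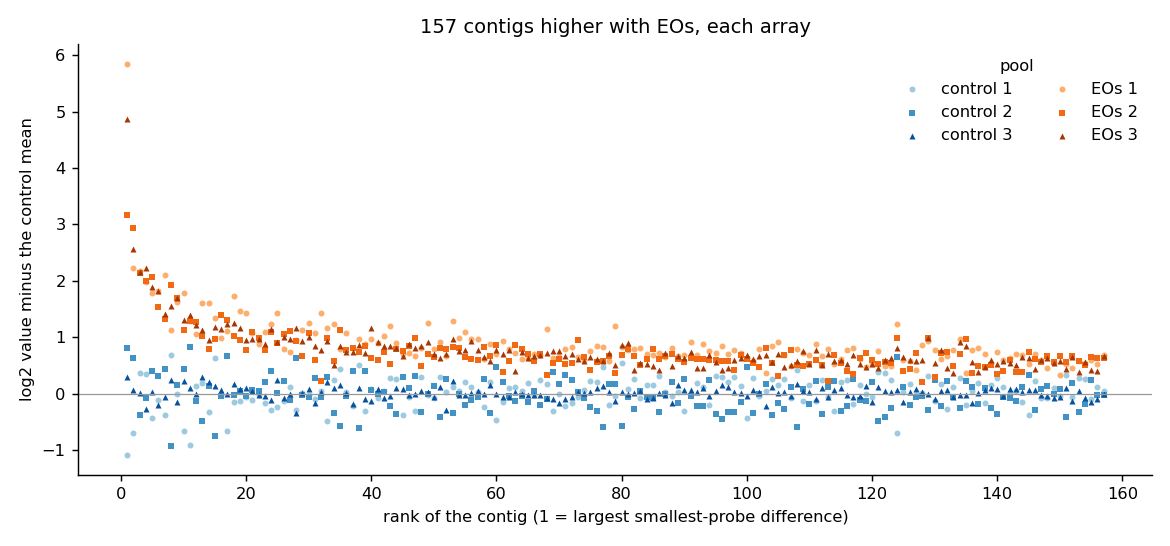
Each contig is a column of 6 points at its rank (x axis), with the log2 value of each array minus the mean of the 3 control arrays (y axis); blue points are control pools and orange points are EOs pools. The contig ranked first stands alone with a mean difference of 4.62, and 129 of the 157 contigs have a mean difference under 1.

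The contig ranked first was the clone read cDN01P0006H12.F.ab1. The mean of its 3 qualifying probes was -2.94, -1.04 and -1.56 on the control arrays and 4.01, 1.31 and 3.02 on the EOs arrays. The control arrays averaged -1.84 ± 0.98 and the EOs arrays 2.78 ± 1.36 (SD, n = 3 pools), a difference of 4.62 or 24.7-fold. The highest control array and the lowest EOs array were 2.35 apart. The pools within each diet were also far apart, with EOs 1 above EOs 2 by 2.69 and control 2 above control 1 by 1.90, so the size of the diet difference moved from 4.01 without EOs 1 to 5.36 without EOs 2.

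All 3 probes of cDN01P0006H12.F.ab1 gave this picture, with differences of 4.45, 4.57 and 4.85. One of them was printed in 15 spots, and its spots had an SD between 0.05 and 0.24 on the 6 arrays, far less than the spread between pools. The processed intensity of this probe was 298, 831 and 653 on the control arrays and 30270, 3928 and 18090 on the EOs arrays, and no spot on any array was saturated. The remaining probe of this name was not well above background on any array and stayed between -8.32 and -7.30 in both diets. Whether probes of 1 name overlap in sequence is not given in the sources used here.

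The contig with the most qualifying probes and the higher rank of the 2 that had 4 was Mackenzie-051508-Contig321, ranked 52. The mean of its probes was -1.37, -1.14 and -1.69 on the control arrays and -0.74, -0.60 and -0.68 on the EOs arrays. The EOs pools lay close together, the control pools less so, and the gap between diets was 0.40. The averages were -1.40 ± 0.27 and -0.68 ± 0.07 (SD, n = 3 pools), a difference of 0.72 or 1.65-fold. Its 4 probes differed between diets by 0.69, 0.71, 0.72 and 0.76, and all of them placed the pools of a diet in the same order. One of these was printed in 15 spots and gave nearly the values of another on all 6 arrays.

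**Figure D2:**
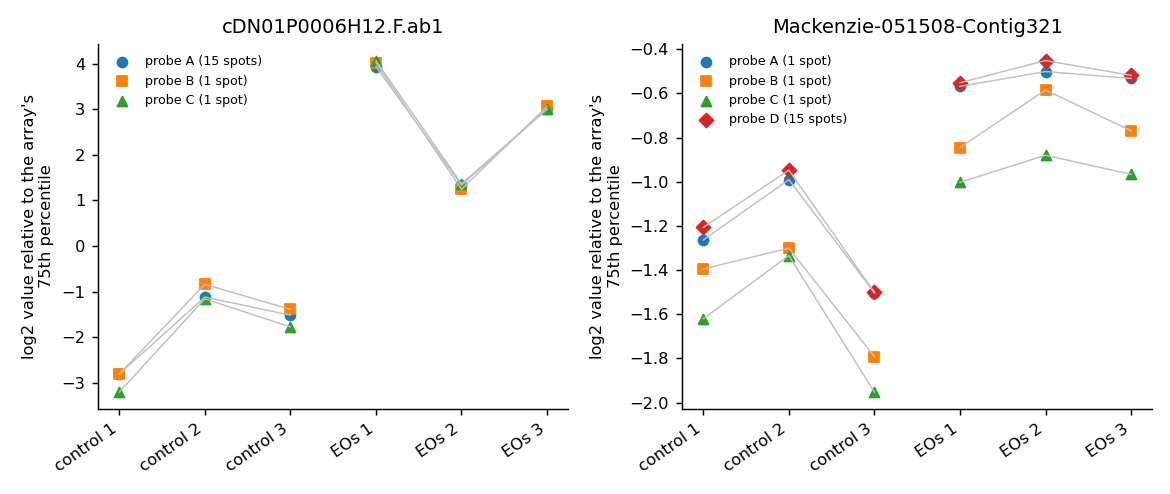
Log2 value relative to the array's 75th percentile (y axis) on each array (x axis) for every qualifying probe of cDN01P0006H12.F.ab1 (left) and Mackenzie-051508-Contig321 (right); grey lines join the values of 1 probe within a diet. On the left the probes fall almost on each other although EOs 1 and EOs 2 are 2.69 apart, and on the right each of the 4 probes has its EOs values above its control values and the same order of the pools.

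The next contigs by rank differed from the first in how close the pools of a diet were. The contig ranked 2 had -3.00, -1.66 and -2.23 on the control arrays and -0.07, 0.64 and 0.27 on the EOs arrays, a difference of 2.58 or 5.97-fold. The contig ranked 3 was dim, with -3.80, -4.55 and -4.17 against -1.99, -2.03 and -2.01. Its EOs pools agreed to an SD of 0.02 while its control pools had an SD of 0.38, and its difference was 2.16. The contig ranked 4 had 0.02, -0.40 and -0.61 against 1.65, 1.67 and 1.89, a difference of 2.07. In each of these 3 the gap between diets was larger than the range of the pools in either diet.

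That was not so for every contig of high rank. The contig ranked 8 had -3.15, -4.78 and -3.59 on the control arrays and -2.71, -1.91 and -2.28 on the EOs arrays, so its control pools spread over more than its difference of 1.54. The contig ranked 11 had 0.37, 2.09 and 1.37 against 2.57, 2.56 and 2.68, where the control arrays again spread over more than the difference of 1.32 and the EOs arrays hardly at all. Among ranks 2 to 20, the mean differences were 1.05 to 2.58, and the control arrays had the larger SD for 13 of 19 contigs. Over the 157 contigs the control SD was the larger for 97, or 61.8%, and over the 5292 contigs that could be selected it was the larger for 69.1%. The median SD was 0.20 for control and 0.14 for EOs arrays among the 157, against 0.18 and 0.11 among the 5292. Values of the 157 are means over their qualifying probes only, and the rule limits how far their pools can spread. The shares and SDs of the 157 and the 5292 are therefore not of like units.

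The contigs covered a wide range of levels. The brightest, ranked 64, had 5.06, 4.98 and 5.01 on the control arrays and 5.63, 5.81 and 5.75 on the EOs arrays. The dimmest, ranked 88, had -5.24, -4.98 and -5.35 against -4.38, -4.50 and -4.70. The median level of the 157 over all arrays was -1.81, below the -1.08 of all kept probes, and 65 contigs (41.4%) lay below the lower quartile of kept probes at -2.67. Probes of the 107 contigs that were lower with EOs by the mirrored rule had a median level of -1.17. When the 157 were ordered by level and divided into 52 dim, 52 middle and 53 bright contigs, the median difference was 0.71, 0.65 and 0.68.

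**Figure D3:**
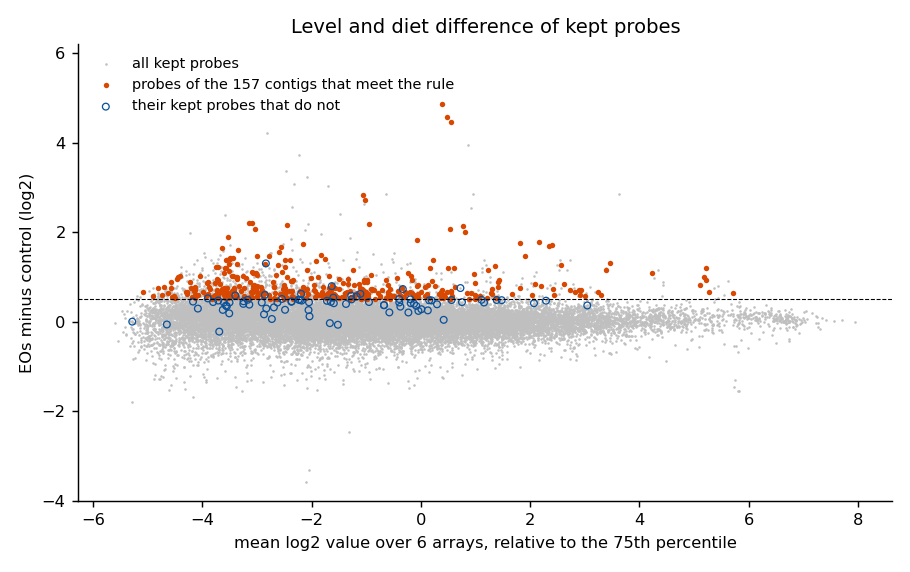
Difference of EOs minus control on the log2 scale (y axis) against the mean log2 value over the 6 arrays (x axis) for all 21469 kept probes (grey), the 385 qualifying probes (orange) and the 80 other kept probes of the same contigs (open circles); the dashed line marks 0.5. The qualifying probes reach from the dimmest to the brightest part of the range with a median level of -1.79.

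Of 475 probes on the array for these contigs, 385 qualified, 10 were not kept and 80 were kept but missed the rule. Of these 80, 32 had diets that did not overlap with a difference under 0.5, 14 had a difference of 0.5 or more with overlapping diets, and 34 missed on both. Their differences had a median of 0.43 and lay between -0.22 and 1.30, and 76 of the 80 were above 0. Over all kept probes the median was 0.02 with quartiles at -0.15 and 0.20. The shares of all kept probes above 0 and without overlap are not given here. These 80 probes saw the same RNA as the qualifying probes of their contigs, so their direction is no separate support. In 77 contigs every kept probe qualified. The number of qualifying probes was 2 in 88 contigs, 3 in 67 and 4 in 2.

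The range of the differences of a contig's qualifying probes had a median of 0.13, which the selection of these probes narrows. Over all kept probes of the 157 contigs the median range was 0.21, against 0.18 in the 5292. The range over qualifying probes was under 0.25 in 122 contigs and over 0.5 in 10. The largest range was 0.94 in the contig ranked 124, with 0.54 by one probe and 1.48 by the other. The second largest difference of a contig decided its entry. The values just inside 0.5 were 0.5013, 0.5034 and 0.5036, and those just outside were 0.4982, 0.4974 and 0.4935, all from probes whose diets did not overlap.

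The rule was also applied to single probes. Of the 21469 kept probes, 855 met it (3.98%), and 625 met its mirror image (2.91%), while 107 contigs (2.02% of 5292) were lower by 2 or more probes. A qualifying probe was found in 451 of the 5292 contigs. A second one was found in 157 of these, or 34.8%, and 294 contigs had 1 only. Another 73 contigs had 2 or more probes with a difference of at least 0.5 and diets that overlapped in at least 1 of them.

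These counts, and the share of higher against lower, moved with the scaling of the arrays and with the signal used. Of the probes that met either rule, 57.8% were higher under the scaling used here, 46.9% after scaling to the median, 45.3% after quantile normalization and 44.4% after scaling to the spike-in probes. With the authors' log2 values, scaled here to the 75th percentile, the share was 69.9%. These values come from the background-subtracted signal, a separate output beside the processed signal. Background is reduced in the processed signal too, so this does not compare values with and without background. For the dim contigs on control 1 its median was 137, where the spot signal had 204. Median, quantile and spike-in scaling and the authors' values shifted the median of all kept probes by less than 0.1. The number of contigs that met the rule was 122 with the median, 124 with quantiles, 95 with the spike-in probes and 190 with the authors' log2 values. Leaving out control 2 raised it to 311 and leaving out control 1 raised it to 268, while each of the other arrays left out gave between 158 and 209. With an array left out the diets are less likely to overlap, which by itself tends to raise the count.

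The diet difference of every kept probe was fitted with limma, with Benjamini-Hochberg adjustment over all kept probes. Of the 385 qualifying probes, 43 had an adjusted p under 0.05, where 0.275% of kept probes were called higher, and 378 had an unadjusted p under 0.05, where 9.65% of kept probes were called higher. The standard error of their differences was between 0.09 and 0.80 with a median of 0.17. Since the rule used the same contrast, these counts show only which differences were large against the pools' spread. Without control 2 the adjusted count was 163, where 525 of the 21469 kept probes were called higher. Without control 1 it was 7, where 11 of all kept probes were called higher. It was 0 without any one of control 3, EOs 1, EOs 2 or EOs 3, where 0 of all kept probes were called higher. If 1 pool of each diet is a mixture, these p-values are too small. With pools 1 and 2 of each diet alone the adjusted count was 0 and the unadjusted count 204. There 0 and 483 of all kept probes were called higher.

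Differences between pools of the same diet were compared between probes of the same contig. The rule limits how far the pools of a diet can spread, since the diets must not overlap, so these differences are not independent of the selection. For control 1 minus control 2, the Pearson correlation between one qualifying probe and another across the 157 contigs was 0.73, and for EOs 1 minus EOs 2 it was 0.72. Spearman's rho, which gives the contig ranked first no extra weight, was 0.73 and 0.60. To set the contigs beside the 5292, the first 2 kept probes of each contig by probe name were taken in both sets, whether they qualified or not. The Pearson correlation was then 0.64 in the 157 and 0.73 in the 5292 for control, and 0.69 and 0.54 for EOs. Spearman's rho was then 0.68 and 0.74 for control and 0.60 and 0.55 for EOs. The 2 probes gave the same sign in 75.8% of the 157 and 79.0% of the 5292 for control, and in 73.9% and 70.2% for EOs. The contigs share the arrays, so these are descriptions over contigs on 1 array pair.

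**Figure D4:**
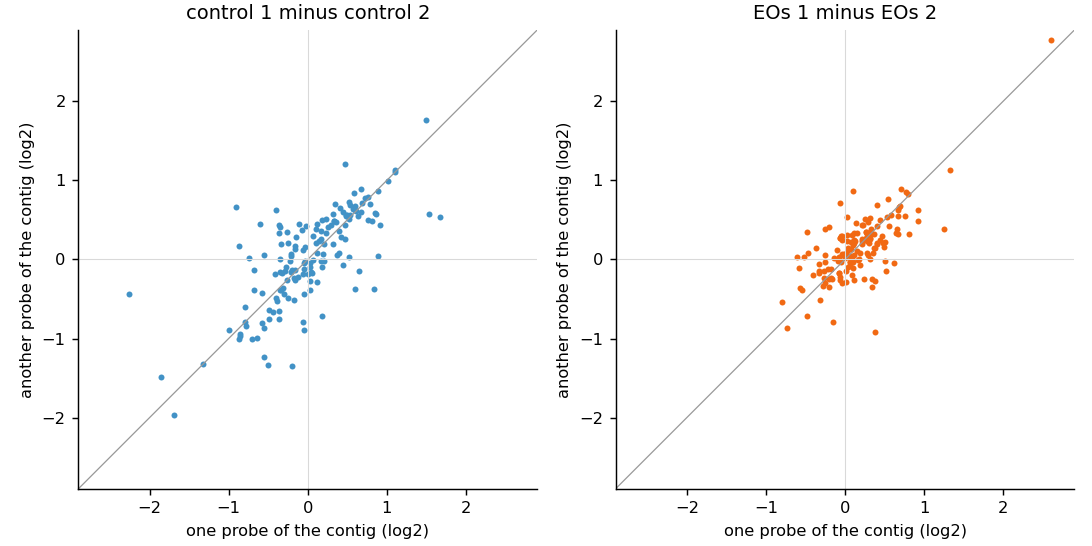
For each of the 157 contigs, the log2 difference between 2 pools of a diet in one qualifying probe (x axis) against another qualifying probe of the same contig (y axis), for control 1 minus control 2 (left) and EOs 1 minus EOs 2 (right); the grey diagonal marks equality. Points follow the diagonal with Pearson correlations of 0.73 and 0.72, and the contig ranked first is the farthest point on the right. Spearman's rho was 0.73 and 0.60.

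The arrays did not contribute evenly. Of the EOs arrays, EOs 1 was the highest for 90 contigs, EOs 2 for 42 and EOs 3 for 25, and EOs 2 was the lowest for 79. Of the control arrays, control 1 was the highest for 74, control 2 for 60 and control 3 for 23, and control 2 was the lowest for 78. EOs 1 was above EOs 2 in 106 contigs (67.5%), against 57.4% of the 5292. The first share rests on qualifying probes only and the second does not, so they are not of like units. EOs 1 was above EOs 2 in 41 of 52 dim contigs, with a median difference of 0.25, and in 37 of 52 middle ones. Among the bright contigs it was above in 28 of 53, with a median difference of 0.02. The share of all probes that were well above background was 87.1%, 82.4% and 88.6% on EOs 1, 2 and 3. It was 75.2% on control 1, the lowest of the 6 arrays, 88.0% on control 2 and 84.3% on control 3. On control 1 this was 21658 probes, and 21469 were kept on all 6 arrays, so control 1 largely set which probes were kept. The part of this share in the order of the pools was not tested.

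Pool 3 lay between pools 1 and 2 in 109 of the 157 contigs for control (69.4%) and in 89 for EOs (56.7%). Of single kept probes, 71.8% did for control and 50.5% for EOs. The values of a contig are means over its qualifying probes, so these shares are not of like units. On the linear scale, where 1 is the array's 75th percentile, the contig ranked first had 16.1 and 2.49 in EOs pools 1 and 2, which average 9.28, and 8.12 in pool 3. In its control pools 1 and 2 it had 0.131 and 0.487, which average 0.309, and 0.340 in pool 3. For the contig ranked 2 the averages were 0.220 and 1.26 and pool 3 had 0.213 and 1.20. For the contig ranked 4 pool 3 lay outside the other pools in both diets, with 0.656 beside 1.01 and 0.757 in control and 3.72 beside 3.13 and 3.19 in EOs.

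In the kind of name, 89 of the 157 contigs were single clone reads whose names start with cDN, or 56.7%, against 41.2% of the 5292. Another 42 were contigs with a plain number (26.8% against 30.8%), 19 were contigs of the seabream assembly (12.1% against 23.7%), 5 were clone reads with the prefix SCT and 2 were Mackenzie contigs. The median level was -2.73 for the SCT reads, -2.68 for the cDN reads, -1.86 for contigs of the seabream assembly, -0.80 for the Mackenzie contigs and -0.75 for the plainly numbered contigs, and the cDN reads made up 37 of the 52 dim contigs. Names of single reads may repeat a transcript that another name also holds. How many of the 157 stand for the same gene was not tested, and the 157 are names and not genes.

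On the array, probes of 1 contig were mostly far apart. The array had 532 rows and 85 columns of spots, and the median distance between 2 qualifying probes of a contig, taken as the larger of the row and column distance of their first spots, was 119 spots, against 148 between the first 2 kept probes of the 5292. In 2 contigs (1.27%) it was within 10 spots, against 0.926% of the 5292. When the array was divided at its middle row and column, 26.2%, 29.1%, 22.1% and 22.6% of the qualifying probes lay upper left, upper right, lower left and lower right, against 30.1%, 30.7%, 18.9% and 20.3% of kept probes. Of the 385 qualifying probes, 293 had a single spot on each array, so agreement between spots could not be examined for them. For the 88 with 2 spots, the spots differed by a median of 0.08, the same as over the 9348 kept probes with 2 spots. The other 4 had 15 spots.

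How many dim contigs met the rule again depended on the processing. The scanner's median signal of the dim contigs' spots was 204, 159 and 167 on the control arrays and 286, 216 and 293 on the EOs arrays, over a local background of 22 to 27. Since the rule chose these spots for higher EOs arrays, the order of these medians is part of the selection. In an alternative chosen after seeing the data, the local background was subtracted from this median signal, in place of the processed signal. Then 19 of 52 dim, 33 of 52 middle and 48 of 53 bright contigs met the rule again. The median difference was 0.53, 0.60 and 0.69. This was not a further correction of the main values. The processed signal of the dim contigs' spots was also below their median signal, with 137, 115 and 119 for control and 243, 165 and 252 for EOs. After the subtraction, negative control spots kept a trimmed mean of 16.0 to 29.6, which leaves out the highest and lowest spots. Under quantile normalization of the processed signal, with no further background step, 23 dim, 41 middle and 53 bright contigs met the rule again. With the authors' log2 values, from the background-subtracted signal, 47 dim, 43 middle and 50 bright contigs did. After scaling to the median 40 dim, 36 middle and 40 bright contigs did.

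**Figure D5:**
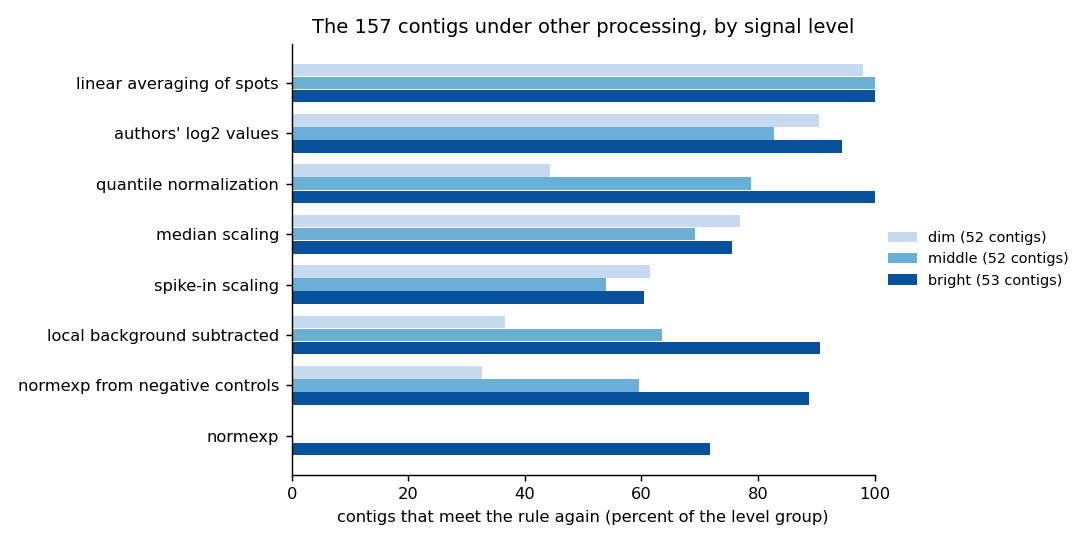
Percent of the dim, middle and bright contigs among the 157 (bars) that met the rule again (x axis) under each other way of processing (y axis). After subtraction of the local background from the median signal, 48 of 53 bright and 19 of 52 dim contigs met it again. Under normexp, a model-based background correction with an added offset of 50, 0 dim and 0 middle contigs did. Its fitted noise SD on control 1 was 1352, against a scaled median absolute deviation of 7.41 in the negative control spots. With the background of the negative control spots and the same offset, the same model gave 17 dim, 31 middle and 47 bright contigs again. The part of the offset in this was not tested.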

How the data were processed

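The authors hybridized Cy3-labelled cRNA of gill pools to one-colour Agilent arrays and deposited the intensity of each spot from Feature Extraction 10.7.3.1 (file headers), without scaling between arrays. They also deposited a table of log2 values. All 253983 of these were within 0.01 of log2 of the background-subtracted intensity, with no scaling or centring. Its medians were 9.22, 8.97 and 8.88 for control and 9.05, 8.71 and 9.18 for EOs arrays. By the methods, GeneSpring scaled to the 75th percentile and an unpaired t-test was used without correction.

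Here, log2 of the processed signal was averaged over the spots of a probe, without spots marked as outliers (63 to 92 per array), and the array's 75th percentile over 28793 probes was subtracted. A probe was kept if over 50% of its spots were well above background on all 6 arrays. Diets were compared with limma 3.58.1 (R 4.3.3), two-sided, and tables were made with pandas 2.3.3 in Python 3.11.15. The rule and the fit were run on simulated data with independent arrays and a shift above the minimum difference. That checks the code, and not how the rule or the p-values behave with pools that share fish. The contigs and the lists were chosen with earlier results of these data known. Without gene names, the named contigs are the first by smallest probe difference and the first by number of qualifying probes, and the planned gene and cell type lists could not be used. That labels number pools does not show separate fish, and p-values measure the spread between pools. The number of arrays limits precision. Pool numbers did not pair the samples.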

Additional observations from a re-analysis of the deposited data

How the results depend on the processing

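The 157 contigs and 855 probes became 486 and 2258 with a minimum difference of 0.25, and 23 and 181 with 1. With 3 or more probes 69 contigs qualified, and without the filter on dim probes 1381 probes did. Scaling to the spike-in probes gave 95 contigs, of which 92 were among the 157. Over the arrays left out in turn, 158 to 311 contigs and 892 to 1780 probes qualified (most without control 2), and 115 to 145 of the 157 met the rule again. Diets are less likely to overlap with an array left out, which by itself tends to raise such counts. Normexp with an offset of 50 gave 42 contigs and 229 probes, and 38 of the 157 met the rule again. No qualifying probe was then called by limma after adjustment. At an unadjusted p under 0.05 limma called 109, where 569 of all kept probes were called higher. Lower with EOs under normexp were 563 contigs and 3201 probes, so that 6.68% of the probes that met either rule were higher. Under it 47 of 52 dim and 13 of 52 middle contigs had a difference below 0. The noise SD fitted by normexp was 1352 on control 1 and between 0.713 and 25.7 on the other arrays. On control 1 the 153 negative control spots had a spread of 7.41. That spread is their median absolute deviation scaled to an SD, which gives outlying spots little weight. There were 2 alternatives chosen after seeing the data. Normexp with the background of the negative control spots and the same offset gave 95 of the 157 again. Subtraction of the local background from the median signal gave 100.

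Of the 385 qualifying probes, 43 were called by limma after adjustment, where 59 of the 21469 kept probes were called higher. The methods' t-test called 314 at an unadjusted p under 0.05, as the methods use it, and 4 after adjustment. Over all kept probes it called 1942 and 9 higher. With pools 1 and 2 only limma called 0 (204 unadjusted), against 0 (483 unadjusted) of all kept probes. Arrays left out in turn gave 0 to 163, against 0 to 525 of all kept probes. Since the rule used the same contrast, these counts give the contigs no separate support. Pool numbers are shared by the diets, but the methods use an unpaired test, so same-numbered pools were not treated as pairs. Their deviations had weak negative correlations of -0.23, -0.27 and -0.34, against -0.06 to 0.28 for pools with different numbers. The replicate block gave 0 calls after adjustment and 367 unadjusted, where 0 and 1669 of all kept probes were called higher. Under the scalings, background corrections, spot averaging and arrays left out, both named contigs stayed higher with EOs, but Mackenzie-051508-Contig321 fell from 0.72 to 0.41 under normexp, below the minimum of 0.5. How far signal over background limits the dim contigs was not tested.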
